A study of Mus musculus with 2 samples.

Results

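Chemokine ligand genes were compared between the macrophage libraries of 2 groups, PDR and SKYD. The members were all protein-coding genes of the deposited table whose names begin with Ccl, Cxcl, Cx3cl or Xcl followed by a digit, 44 of 54532 genes. They carry 38 symbols, since some symbols have several copies, and 7 of the 44 lie on unplaced scaffolds. By class, 30 were Ccl, 12 Cxcl, 1 Xcl and 1 Cx3cl genes.

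RNA was sequenced from aortic cells sorted on F4/80 and CD11b, surface proteins of macrophages that other myeloid cells can carry. Both groups were ApoE-/- mice on C57BL/6J, labelled as 6 weeks old, and named for syndromes of Chinese medicine, Phlegm-Dampness Retention (PDR) and Spleen and Kidney Yang Deficiency (SKYD). The PDR mice had the high-fat diet for 4 weeks. SKYD mice received propylthiouracil, a drug that blocks thyroid hormone synthesis, at 10 mg/kg per day for 4 weeks, and then the same diet for 2 weeks. Cells of 5 mice were pooled into 1 library per group, so no difference has a replicate check and no p-value was computed. Syndrome, drug, time on the diet and time of sampling cannot be told apart.

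Chemokines are small secreted proteins that guide leukocytes along concentration gradients by binding G protein-coupled receptors. Their classes are named for the spacing of the first cysteines, and most ligands bind more than 1 receptor. In the arterial wall, macrophages are both a source of chemokines and a cell type that they recruit, and the monocyte-attracting ligands are known for their role in atherosclerosis.

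The upstream sequences of 3 ligands are shown because Cxcl9 and Cxcl10 are neighbours that were both higher in the PDR library, while Ccl17 was among the ligands furthest higher in the SKYD library. They are the 250 bases before the RefSeq start sites on GRCm38.p6, 5′ to 3′ on the strand of the gene, at chr5:92328080-92328329 (Cxcl9, minus strand), chr5:92348890-92349139 (Cxcl10, minus strand) and chr8:94810203-94810452 (Ccl17, plus strand). Capitals mark matches, on either strand, to 4 motifs named below, and matches that overlap are joined.
Cxcl9: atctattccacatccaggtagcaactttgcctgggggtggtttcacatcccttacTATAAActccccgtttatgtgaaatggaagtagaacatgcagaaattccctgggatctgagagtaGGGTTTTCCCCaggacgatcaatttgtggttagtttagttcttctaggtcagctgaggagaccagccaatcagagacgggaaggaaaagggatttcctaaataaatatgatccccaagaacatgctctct
Cxcl10: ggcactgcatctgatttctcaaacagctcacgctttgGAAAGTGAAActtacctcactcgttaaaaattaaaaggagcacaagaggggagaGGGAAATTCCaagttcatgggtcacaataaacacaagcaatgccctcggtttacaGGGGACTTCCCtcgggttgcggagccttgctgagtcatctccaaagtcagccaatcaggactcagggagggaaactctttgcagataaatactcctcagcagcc
Ccl17: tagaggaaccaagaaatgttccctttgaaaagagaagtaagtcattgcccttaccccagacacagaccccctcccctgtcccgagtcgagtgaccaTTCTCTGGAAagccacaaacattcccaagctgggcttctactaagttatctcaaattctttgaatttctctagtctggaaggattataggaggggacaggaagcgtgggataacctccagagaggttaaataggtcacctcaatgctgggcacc

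The capitals in Cxcl10 begin with GAAAGTGAAA at base -213 from the start site, a match to the interferon response type motif GAAANNGAAA. It is followed by matches to the NF-kappaB type motif GGGNNNNNCC at -159, -104 and -103. In Cxcl9 the capitals are TATAAA at -195 and NF-kappaB type matches at -130 and -129. In Ccl17 they are TTCTCTGGAA at -154, a match to the STAT6 type motif TTCNNNNGAA. Windows of 300 bases, from 250 before to 50 after each start site, were searched for the same 4 motifs, and 16 of the 23 ligand genes compared below had a window. GAAANNGAAA occurred in 3.44% of all 32851 windows and in those of 2 of the 16 genes, Cxcl10 and Cxcl14. TTCNNNNGAA occurred in 6.95% of windows and in those of 1 of the 16 genes, Ccl17. The letters GGGNNNNNCC were common, in 50.8% of windows and in 8 of the 16 genes. TATAAA was in 13.6% of windows and in 6 of the 16 genes. A match is a run of letters and does not show binding. Ccl2, Ccl4, Ccl5, Ccl7, Ccl11, Ccl24 and Cxcl16 had no entry in the table.

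Levels are given as FPKM, fragments per kilobase of gene length, scaled by a size for each library. This size was not the library's sum of reads on genes, as described under processing. The FPKM values were whole multiples of 1 read in each library, so reads per gene could be recovered. They summed to 23086889 for PDR and 25427863 for SKYD. Differences are log2(FPKM + 1) in PDR minus SKYD, which understates the change of genes at low levels. A gene was compared where its mean FPKM reached 1, and a difference of more than 2-fold on that scale was counted. Folds of FPKM itself carry 95% Clopper-Pearson intervals, which cover counting error only and not the spread between mice.

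Of the 44 members, 23 were compared and 21 had a mean FPKM under 1. A gene that passed this limit only through the library where it was high had to differ. Among the 23, 6 were past 2-fold on the PDR side, namely Ccl2, Ccl4, Ccl5, Ccl7, Cxcl9 and Cxcl10. That is 26.1% of them, beside 7.38% of the 10399 genes compared. A further 7 were past 2-fold on the SKYD side, namely Ccl6, Ccl9, Ccl11, Ccl17, Ccl24, Cxcl13 and Cxcl14, or 30.4% beside 6.91% of all genes compared. Protein-coding genes had 6.16% and 5.38%. Ccl11 and Cxcl14 reached a mean of 1 only through SKYD, where they were higher, and the same is true of Ccl25 and Ccl27a, which were not past 2-fold. With a limit of 5 in place of 1, which none of these 4 reached, 6 of 19 members were past 2-fold in PDR and 5 in SKYD, beside 8.06% and 6.48% of all genes compared. Cxcl10, among the 6, reached that limit only through PDR, so this count is not free of the selection either. The median difference of the 23 was -0.07, beside -0.0035 for all genes compared, because members lay on both sides, 11 higher in PDR and 12 higher in SKYD. Its sign depended on the choices made. The median was 0.35 with the limit of 5 and 0.70 when scaled to macrophage markers, as described below, beside -0.0012 and 0.66 for all genes compared. Of the 15 Ccl genes compared, 4 were past 2-fold in PDR and 5 in SKYD, and of the 7 Cxcl genes 2 and 2.

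**Figure D1:**
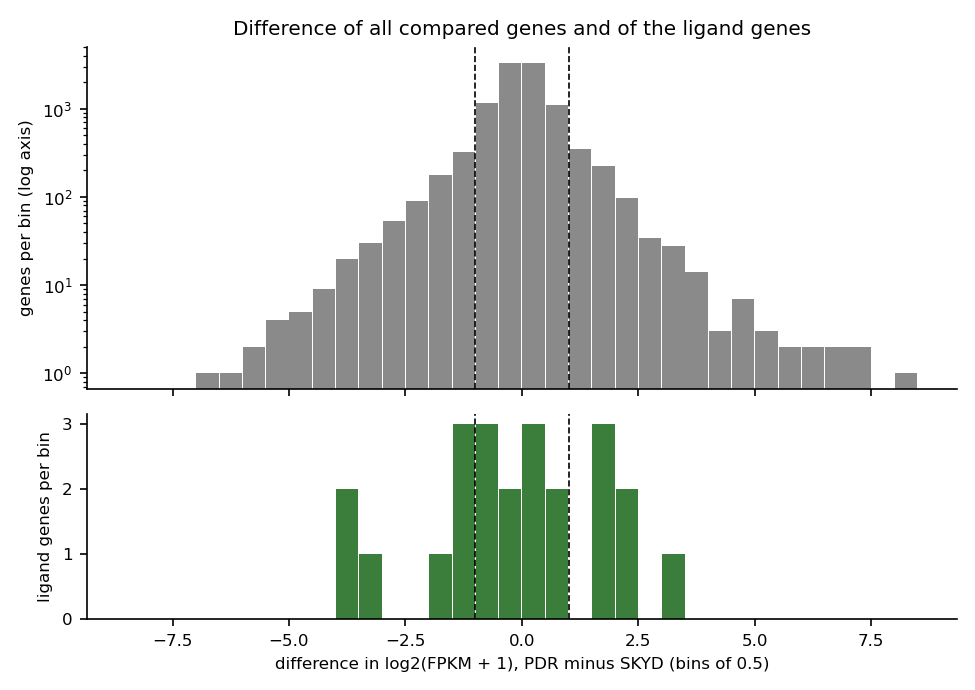
Difference in log2(FPKM + 1), PDR minus SKYD, in bins of 0.5, for all 10399 compared genes (upper panel, log axis) and for the 23 compared ligand genes (lower panel). Dashed lines mark 2-fold, and 6 ligand genes lie beyond the right line and 7 beyond the left line.

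The summed FPKM of all members was 3990 for PDR and 7803 for SKYD, 1.96-fold higher in SKYD. Ccl6 and Ccl9 made up 79.6% of this sum in PDR and 89.6% in SKYD. Without both genes, a choice made after the values were seen, the sums were 815 and 813, so the higher total in SKYD rested on this pair. Scaled to macrophage markers, as described below, the sum was 1.13-fold higher in SKYD. The members took 0.729% of reads in PDR and 1.49% in SKYD.

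Ccl6 and Ccl9 encode CC ligands with an extended N-terminus that bind CCR1 and attract monocytes and other leukocytes. Ccl6 was the most abundant ligand gene, with 2730.2 FPKM in PDR (115106 reads) and 5575 in SKYD (250099 reads), and ranked 25th and 12th of all genes. Its level was 2.04-fold higher in SKYD (95% CI 2.03 to 2.06), with a difference of -1.03 that lay just past the 2-fold limit. Ccl9 came second in both libraries, with 445 FPKM in PDR and 1415 in SKYD, 3.18-fold higher in SKYD (95% CI 3.14 to 3.22). The gene overlapping Ccl6 on the other strand, E230016K23Rik, had 140 and 239 reads. Ccl6 therefore stood far above the rest of the family in both libraries and Ccl9 in the SKYD library, while in PDR Ccl9 was closer to Ccl2, which came next with 199 FPKM.

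Most macrophage markers were also at a higher level in SKYD. Of 12 listed, 12 were compared, 5 were past 2-fold in SKYD and 0 in PDR, and their median difference was -0.77. By direction alone 10 were higher in SKYD and 2 in PDR, Csf1r with 57.7 and 44.9 FPKM and Fcgr1 with 51.9 and 35.3, while Adgre1, the gene of F4/80, was nearly level at 87.3 and 93.3. Itgam, the gene of CD11b, had 8.84 and 14.4 FPKM, 1.62-fold higher in SKYD. These 4 were named after their values were seen. The summed FPKM of the 12 was 24923 in PDR and 48228 in SKYD, 1.94-fold higher, and most of it came from Lyz2, with 22217 and 41336. In these bulk samples, fewer cells of a type and less RNA per cell cannot be told apart. Scaled to the median of these 12 markers, an alternative added after the data were seen that moved the median of all compared genes by 0.68, Ccl6 had a difference of -0.23, Ccl9 of -0.87, Ccl11 of -0.80 and Cxcl14 of -0.85, and none of these 4 was past 2-fold. The part of the markers in the results was not tested otherwise. In all marker and pathway lists, the most abundant or leading gene is that of the highest mean over both libraries, and as for the members, genes that reached a mean of 1 only through the library where they were high are counted.

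**Figure D2:**
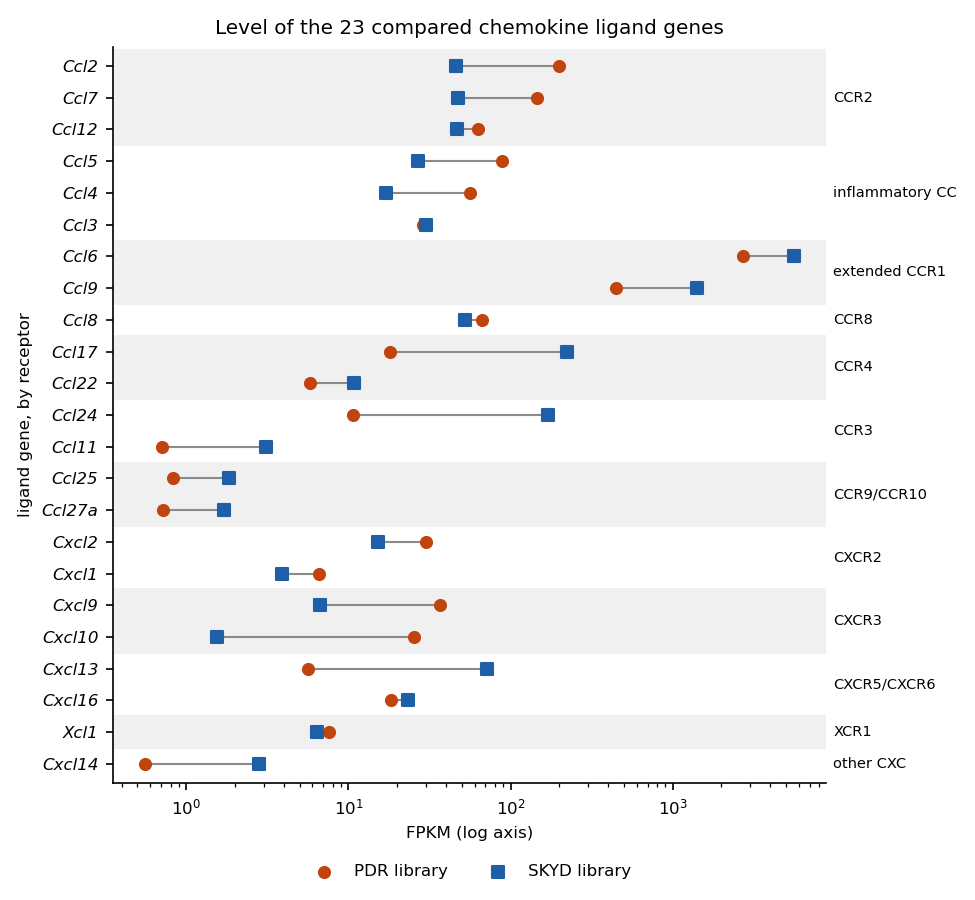
FPKM (log axis) of the 23 compared ligand genes in the PDR library (circles) and the SKYD library (squares), ordered by the receptor they mainly bind, with Ccl3, Ccl4 and Ccl5 as inflammatory CC. Ccl6 lies far to the right in both libraries, followed by Ccl9, which is nearer to the others in PDR than in SKYD.

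The CCR2 ligands Ccl2, Ccl7 and Ccl12, which draw monocytes from the blood, were all at a higher level in the PDR library. Ccl2, also known as MCP-1, had 199 FPKM in PDR (5307 reads) and 46.0 in SKYD (1309 reads), 4.31-fold higher in PDR (95% CI 4.06 to 4.59). Ccl7, or MCP-3, had 145 and 47.1 FPKM, 3.07-fold higher in PDR (95% CI 2.85 to 3.31). Ccl12, or MCP-5, had 62.9 and 46.7 FPKM, 1.35-fold higher in PDR and not past 2-fold, though it was when scaled to the macrophage markers. In the SKYD library Ccl2, Ccl7 and Ccl12 were at like levels with overlapping counting intervals, whereas in PDR Ccl2 was the highest of them. Summed, the CCR2 ligands had 406 FPKM in PDR and 139.84 in SKYD. Their receptor gene Ccr2 was at almost the same level in both, 83.2 and 81.1 FPKM.

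Monocyte markers, a list that includes Ccr2, had a summed FPKM of 5680 in PDR and 3266 in SKYD. Of 8 listed, 7 were compared, 1 was past 2-fold in PDR and 0 in SKYD, with a median difference of 0.43. Chil3, most abundant by the mean, had 2264 and 1245 FPKM, and the part of these markers in the levels of the CCR2 ligands was not tested.

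Ccl3, Ccl4 and Ccl5 encode inflammatory CC ligands that attract T cells, NK cells and monocytes. Ccl5, or RANTES, which T and NK cells make in large amounts, had 88.7 FPKM in PDR (2000 reads) and 26.9 in SKYD (645 reads), 3.30-fold higher in PDR (95% CI 3.02 to 3.61). Markers of NK and effector T cells had a median difference of 1.39 and T cell markers one of -2.36, and the part of either list in the level of Ccl5 was not tested. Ccl4, or MIP-1 beta, had 56.4 and 17.0 FPKM, 3.33-fold higher in PDR (95% CI 2.90 to 3.82). Ccl3, or MIP-1 alpha, had 28.8 and 30.3 FPKM, a fold of 1.05 whose interval (95% CI 0.933 to 1.19) includes 1. Ccl4 and Ccl3 are neighbours on chromosome 11, and of the pair only Ccl4 was past 2-fold. The receptor gene Ccr1 had 103 FPKM in PDR and 176 in SKYD.

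The CXCR3 ligands Cxcl9 and Cxcl10 are induced by interferons and attract effector T cells and NK cells. Cxcl10 had 25.3 FPKM in PDR (1338 reads) and 1.55 in SKYD (87 reads), 16.4-fold higher in PDR (95% CI 13.2 to 20.6). Cxcl9 had 36.7 FPKM in PDR (2598 reads) and 6.70 in SKYD (505 reads), 5.47-fold higher in PDR (95% CI 4.97 to 6.03). Cxcl10 thus had the largest fold in the PDR direction of the 23 genes, and it was the 12th member by level in PDR and the 24th in SKYD, with counting intervals that overlapped those of neighbours in both. The gene bodies of Cxcl10 and Art3 overlap on opposite strands and share 2.95% of the 64-base windows of Cxcl10. Art3 had 42 reads in PDR and 16 in SKYD, far fewer than Cxcl10.

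The receptor gene Cxcr3 had 43.7 FPKM in PDR and 3.40 in SKYD, 12.9-fold higher in PDR (95% CI 10.9 to 15.3), and so lay on the same side as its ligands. Markers of NK and effector T cells did as well. Of 10 listed, 9 were compared, 8 were past 2-fold in PDR and 0 in SKYD, with a median difference of 1.39, and of the 8, Prf1 and Tbx21 reached a mean of 1 only through PDR. Their summed FPKM was 546 in PDR and 188 in SKYD, with Gzma the most abundant at 256 and 115, and their part in the levels of Ccl4, Ccl5, Cxcl9 and Cxcl10 was not tested. Among 8 compared genes of interferon signalling, 2 were past 2-fold in PDR and 0 in SKYD, and the median difference was 0.52. Among these was the transcription factor gene Irf1, with 56.6 FPKM in PDR and 15.6 in SKYD. The receptor subunits Ifngr1 and Ifngr2 had 114 and 37.2 FPKM in PDR and 168 and 24.3 in SKYD. Ifng itself, named after its values were seen, had a mean FPKM under 1, with 39 reads in PDR and 6 in SKYD, 6.92-fold higher in PDR (95% CI 2.91 to 20.0).

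Ccl17 and Ccl22 encode the ligands of CCR4, a receptor of type 2 helper and regulatory T cells. Ccl17, or TARC, had 18.0 FPKM in PDR (217 reads) and 224 in SKYD (2882 reads), 12.5-fold higher in SKYD (95% CI 10.9 to 14.4). It was the 14th member by level in PDR, where its counting interval overlapped that of Cxcl16, and the 3rd in SKYD. Ccl22, or MDC, had 5.82 and 10.8 FPKM, 1.86-fold higher in SKYD and not past 2-fold. Scaled to the macrophage markers, Ccl22 was about level with a difference of -0.09, while Ccl17 had -2.79. The receptor gene Ccr4, named after its values were seen, had 0 reads in PDR and 87 in SKYD, with a mean FPKM under 1. Against a floor of 3 reads Ccr4 was 27.3-fold higher in SKYD, and its 95% counting interval began at 21.7. T cell markers and some dendritic cell markers, given with the other lists, were also higher in SKYD, and their part in the levels of Ccl17 and Ccr4 was not tested.

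The eotaxin genes Ccl24 and Ccl11 encode ligands of CCR3, the main chemokine receptor of eosinophils. Ccl24, or eotaxin-2, had 10.7 FPKM in PDR (326 reads) and 169.96 in SKYD (5501 reads), 15.9-fold higher in SKYD (95% CI 14.2 to 17.8). Ccl11, or eotaxin-1, was far lower, with 0.708 FPKM in PDR (18 reads) and 3.11 in SKYD (84 reads), 4.39-fold higher in SKYD (95% CI 2.61 to 7.76). Ccl24, Ccl17 and Cxcl13 therefore had the largest folds in the SKYD direction of the 23 compared genes. The interval of Ccl24 overlaps those of the others, and the order among them was not tested. The wide interval of Ccl11 reflects its few reads. The third gene of this group, Ccl26, was at 0 in both libraries.

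Eosinophil markers were not uniform. Of 9 listed, 5 were compared, 1 was past 2-fold in PDR and 2 in SKYD, with a median difference of -0.64. Their summed FPKM was 319 in PDR and 802 in SKYD, nearly all from Ear2 with 295 and 769, a gene that macrophages also express. The eosinophil peroxidase gene Epx was at 0 in both libraries, and Ccr3 had 48 and 43 reads.

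Interleukins 4 and 13 are known inducers of Ccl17, Ccl22 and Ccl24 in macrophages. Of 7 compared genes of that pathway, 0 were past 2-fold in PDR and 1 in SKYD, and the median difference was 0.27. That gene, Retnla, is a marker of alternatively activated macrophages and had 1940 FPKM in PDR and 9809 in SKYD, 5.06-fold higher in SKYD (95% CI 4.99 to 5.12). Chil3, which is used as a marker of the same state, lay on the other side, with 2264 and 1245 FPKM. Il4 had 1 read in PDR and 49 in SKYD, a ratio of 46.0 (95% CI 7.89 to 1856), and Il13 was at 0 in both. Il4 and Il13 were named after their values were seen.

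**Figure D3:**
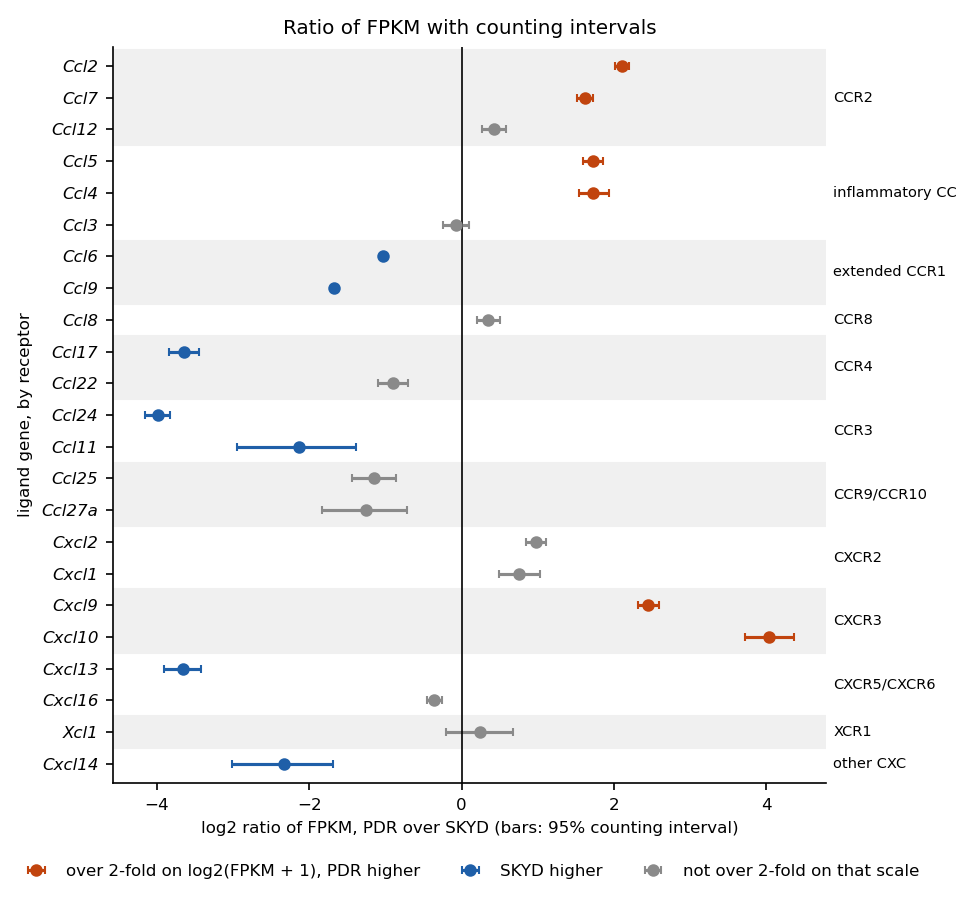
Log2 ratio of FPKM, PDR over SKYD, of the 23 compared ligand genes with 95% counting intervals, ordered by receptor. Colours mark the 6 genes over 2-fold higher in PDR and the 7 over 2-fold higher in SKYD on the log2(FPKM + 1) scale, and the intervals of Ccl3 and Xcl1 include 0.

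The CXCR2 ligands Cxcl1 and Cxcl2, which attract neutrophils, were both at a higher level in PDR, and neither was past 2-fold except when scaled to the macrophage markers (1.29 and 1.69). Cxcl2, or MIP-2, had 29.98 FPKM in PDR (1456 reads) and 15.2 in SKYD (787 reads), 1.97-fold higher in PDR (95% CI 1.80 to 2.15), and with a difference of 0.93 it lay just inside the limit. Cxcl1, or KC, had 6.61 and 3.905 FPKM, 1.69-fold higher in PDR (95% CI 1.40 to 2.05). The related genes Cxcl3 and Cxcl5 had a mean FPKM under 1 and lay on the other side. Cxcl3 had 0 reads in PDR and 159 in SKYD, and Cxcl5 had 0 and 16 reads. Against a floor of 3 reads they were 49.8-fold and 5.01-fold higher in SKYD. Their 95% counting intervals began at 40.0 and 3.62. Cxcl2 and Cxcl3 share sequence, 5.12% of the 64-base windows of Cxcl2 and 3.32% of those of Cxcl3 also matching other genes, so that their reads are less certain. Neutrophil markers had a summed FPKM of 4895 in PDR and 3738 in SKYD. Of 12 listed and compared, 4 were past 2-fold in PDR and 0 in SKYD, with a median difference of 0.75 and with S100a9 the most abundant at 2209 and 1677, and their part in these levels was not tested.

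Genes of the NF-kappaB pathway and of inflammatory cytokines, known to act upstream of the CCR2 and CXCR2 ligands, lay on both sides. Of 10 compared, 3 were past 2-fold in PDR and 1 in SKYD, with a median difference of 0.13. Tnf was 4.79-fold higher in PDR, with 7.25 and 1.51 FPKM, and Nfkb2 2.54-fold, with 12.1 and 4.76. The third gene in PDR was Relb, named after its values were seen, with 7.28 and 3.03 FPKM. Nfkbia, which encodes an inhibitor of NF-kappaB and is induced by it, was 2.11-fold higher in SKYD, with 230.27 and 485 FPKM. Il1b had 89.8 and 71.1 FPKM and Rela 21.6 and 22.0, neither past 2-fold.

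Cxcl13 and Cxcl16 encode ligands of CXCR5 and CXCR6. Cxcl13, which draws B cells into lymphoid follicles and is also made by serosal macrophages, had 5.66 FPKM in PDR (153 reads) and 71.7 in SKYD (2061 reads), 12.7-fold higher in SKYD (95% CI 10.7 to 15.0). Its receptor gene Cxcr5 lay on the other side, with 18.1 FPKM in PDR and 3.52 in SKYD. Cxcl16, a membrane-bound ligand that is also a scavenger receptor for oxidised lipoprotein, had 18.3 and 23.5 FPKM, 1.28-fold higher in SKYD, and had a difference of 0.42 toward PDR when scaled to the macrophage markers. That gene overlaps Zmynd15 on the other strand, and 16.0% of its 64-base windows occur in Zmynd15 transcripts, while Zmynd15 had 72 and 191 reads. Its receptor gene Cxcr6 was 6.67-fold higher in PDR, with 27.2 and 4.08 FPKM, so Cxcr5 lay on the other side from Cxcl13, and no side is given for Cxcl16, whose direction depended on the scaling. Cxcl12, the ligand of CXCR4, had few reads, 79 in PDR and 82 in SKYD, with a mean FPKM under 1.

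Markers of the cells that carry or meet these ligands are given beside them. Resident peritoneal macrophage markers, a list included because the serosal type expresses Cxcl13, had a summed FPKM of 556 in PDR and 1342 in SKYD. Of 12 listed and compared, 0 were past 2-fold in PDR and 4 in SKYD, with a median difference of -0.79 and with Alox15 the most abundant at 236 and 683. Of 8 B cell markers 6 were compared, and of these 6 were past 2-fold in PDR and 0 in SKYD, with a median difference of 2.22. Their summed FPKM was 1707 in PDR and 388 in SKYD, with Cd79b the most abundant at 802 and 168. The part of either list in the level of Cxcl13 was not tested.

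The remaining compared ligands were at low levels. Ccl8, a ligand of CCR8 in mice, was the exception, with 66.6 FPKM in PDR and 52.1 in SKYD, 1.28-fold higher in PDR (95% CI 1.15 to 1.42), and past 2-fold only when scaled to the macrophage markers (1.13). Xcl1, or lymphotactin, made by NK and CD8 T cells, had 7.57 FPKM in PDR and 6.43 in SKYD with an interval of the fold from 0.868 to 1.60. It overlaps a non-coding gene that shares 8.04% of its 64-base windows and had 0 reads. Cxcl14 had 0.559 FPKM in PDR (24 reads) and 2.80 in SKYD (128 reads), 5.01-fold higher in SKYD (95% CI 3.22 to 8.11). Ccl25, known for the attraction of CCR9-bearing cells to thymus and small intestine, had 0.829 and 1.83 FPKM, 2.21-fold higher in SKYD (95% CI 1.81 to 2.70) but not past 2-fold on the log2(FPKM + 1) scale. Its gene body overlaps Elavl1, which had 2372 reads in PDR and 2050 in SKYD beside 145 and 341 for Ccl25. The receptor gene Ccr9 had 0.544 FPKM in PDR and 18.6 in SKYD, 34.2-fold higher in SKYD (95% CI 28.8 to 41.1).

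Ccl27a, a ligand of CCR10 known from skin, had 0.716 FPKM in PDR and 1.72 in SKYD. It shares 38.0% of its 64-base windows with Ccl27b and other copies, so its value is uncertain. Its gene body also overlaps Il11ra1 on the other strand, which had 434 and 440 reads beside 40 and 102 for Ccl27a. The CCR7 ligand genes Ccl19, Ccl21a and Ccl21b share sequence with other copies as well, and their values are also uncertain. The 8 rows of CCR7 ligands, which guide cells to lymph nodes, held 4 reads in PDR and 7 in SKYD, and none was compared. Of the 21 members not compared, 4 had at least 10 reads in a library, namely Cxcl3, Cxcl5, Cxcl12 and Cx3cl1, the last with 16 reads in PDR and 10 in SKYD. A further 8 had between 1 and 9 reads in the library with more, and 9 were at 0 in both. Across all 44, 26 had reads in both libraries, 1 in PDR only and 8 in SKYD only. Of all 54532 genes, 17738 had reads in PDR and 20499 in SKYD. The PDR-only member, a scaffold copy of Ccl21c, had 2 reads, and of the 8 only Cxcl3 and Cxcl5 had at least 10.

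Neighbouring ligand genes did not all lie on the same side. The first cluster on chromosome 11 (82035571 to 82305690, GRCm38) holds Ccl2, Ccl7, Ccl11, Ccl12, Ccl8 and Ccl1, with 2 past 2-fold in PDR and 1 in SKYD. The next cluster (83525778 to 83664683) holds Ccl5, Ccl9, Ccl6, Ccl3 and Ccl4. There Ccl9 and Ccl6, side by side, were past 2-fold in SKYD, and Ccl5 and Ccl4, at its ends, in PDR. On chromosome 5, Cxcl9 and Cxcl10 (92321347 to 92348889) were both past 2-fold in PDR, while of the CXCR2 ligand cluster (90759360 to 90905938) none of 2 compared genes was. On chromosome 8, Ccl17 and Ccl22 have Cx3cl1 between them (94745590 to 94812036), and of the 3 only Ccl17 was past 2-fold.

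**Figure D4:**
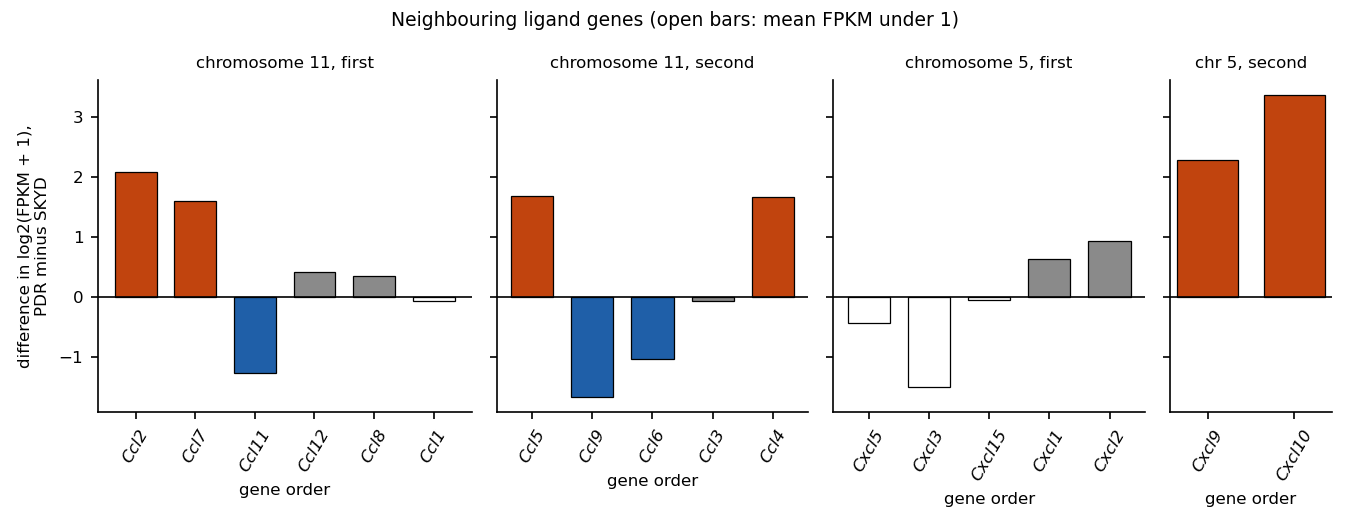
Difference in log2(FPKM + 1), PDR minus SKYD, of ligand genes in their order along 4 clusters on chromosomes 11 and 5, where open bars have a mean FPKM under 1 and filled colours are past 2-fold. Ccl5 and Ccl4 lie above 0 at the ends of the second chromosome 11 cluster, with Ccl9 and Ccl6 below 0 between them.

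The order of the members by level also differed between the libraries. After Ccl6 and Ccl9, the order in PDR was Ccl2, Ccl7, Ccl5 and Ccl8, and in SKYD it was Ccl17, Ccl24, Cxcl13 and Ccl8. In PDR the counting intervals of Ccl8, Ccl12 and Ccl4 overlapped from neighbour to neighbour, as did those of Cxcl2, Ccl3 and Cxcl10, those of Cxcl16 and Ccl17, those of Xcl1, Cxcl1, Ccl22 and Cxcl13 and those of Ccl25, Ccl27a, Ccl11 and Cxcl14. In SKYD the same held for Ccl8, Ccl7, Ccl12 and Ccl2, for Ccl3 and Ccl5, for Ccl4 and Cxcl2 and for Cxcl9 and Xcl1. It also held for Cxcl1, Ccl11 and Cxcl14 and for Ccl25, Ccl27a and Cxcl10. Overlapping intervals do not show equal levels, and the order of such neighbours was not tested.

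Of 18 chemokine receptor genes, 14 were compared, 4 were past 2-fold in PDR and 1 in SKYD, with a median difference of 0.38. Those in PDR were Cxcr3, Cxcr5, Cxcr6 and Ccr6, and that in SKYD was Ccr9. The receptor of Ccl20, Ccr6, had 22.5 FPKM in PDR and 3.59 in SKYD, and Ccr7 had 56.7 and 30.1. Ccr6, Cxcr5 and Cxcr6 were named after their values were seen. Of the 5 atypical receptors, which take up chemokines without the usual signal, 2 were compared, Ccrl2 with 14.3 and 6.56 FPKM, past 2-fold in PDR, and Ackr3 with 3.87 and 16.7, past 2-fold in SKYD. Of 17 compared genes of the signal transduction shared by the receptors, 0 were past 2-fold in PDR and 1 in SKYD, Arrb2 with 8.43 and 18.8 FPKM, and the median difference was -0.11. Beside the 7.38% and 6.91% of all genes compared, these counts do not set the list apart. The most abundant were Rac2 with 245 and 191 FPKM, Gnai2 with 148 and 209 and Rac1 with 81.2 and 99.2, and Elmo1 had 3.32 and 1.49.

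The platelet CXC chemokines Pf4 and Ppbp have other names and are not members. Pf4, which mouse macrophages can also express, had 218 FPKM in PDR and 1446 in SKYD, 6.63-fold higher in SKYD (95% CI 6.41 to 6.87), more than any member but Ccl6 in that library. Ppbp had 22.998 and 19.8 FPKM. Of 8 platelet markers, 5 were compared, 0 were past 2-fold in PDR and 1, Pf4 itself, in SKYD, with a median difference of 0.34 and summed FPKM of 251 and 1471. Gp1bb was at 0 in both.

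Other marker lists moved with the groups as well. Of 11 T cell markers, all compared, 0 were past 2-fold in PDR and 9 in SKYD, with a median difference of -2.36. Their summed FPKM was 195 in PDR and 1370.3 in SKYD, and Cd8b1, highest by the mean, had 39.7 and 535. Of 8 hepatocyte marker genes, all compared, 7 were past 2-fold in PDR and 0 in SKYD, with a median difference of 1.58. Their summed FPKM was 2153 and 746, with Apoa2 the most abundant at 793 and 294. Dendritic cell markers had summed FPKM of 308 and 440.19, with 0 of 8 compared past 2-fold in PDR and 2 in SKYD and a median difference of -0.61, led by Bst2 with 189 and 203. The genes past 2-fold were Cd209a, with 42.4 and 167 FPKM, and Siglech, with 0.491 and 11.4, both named after their values were seen. Both libraries thus held RNA typical of cells that the sort was not aimed at, and lymphocyte and liver markers differed between them.

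Most stromal, thymic and mast cell markers were low in both, though in SKYD Dcn had 39.4 FPKM, Krt8 17.8 and Cpa3 14.0. Fibroblast markers had summed FPKM of 11.04 in PDR and 44.1 in SKYD, with 2 of 2 compared past 2-fold in SKYD, of which Lum reached a mean of 1 only through SKYD, and a median difference of -1.63, led by Dcn with 10.03 and 39.4. Endothelial markers summed to 4.96 and 3.41, with Pecam1, at 3.89 and 2.57 and not past 2-fold, the 1 gene compared. Smooth muscle markers summed to 3.15 and 2.97, with 0 of 2 compared past 2-fold, led by Acta2 with 1.55 and 2.34 and with Myh11, Cnn1 and Tagln at 0. The defining genes of smooth muscle were thus largely undetected. Thymic epithelium markers summed to 10.5 and 25.6, with 0 of 2 compared past 2-fold in PDR and 1 in SKYD, led by Krt8 with 4.26 and 17.8 and with Foxn1 and Psmb11 at 0. Mast cell and basophil markers summed to 17.7 and 19.7, with 2 of 4 compared past 2-fold in PDR and 1 in SKYD, led by Cpa3 with 5.75 and 14.0 and with Mcpt4 and Tpsb2 at 0. The part of these cell types in the levels of the ligands was not tested.

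**Figure D5:**
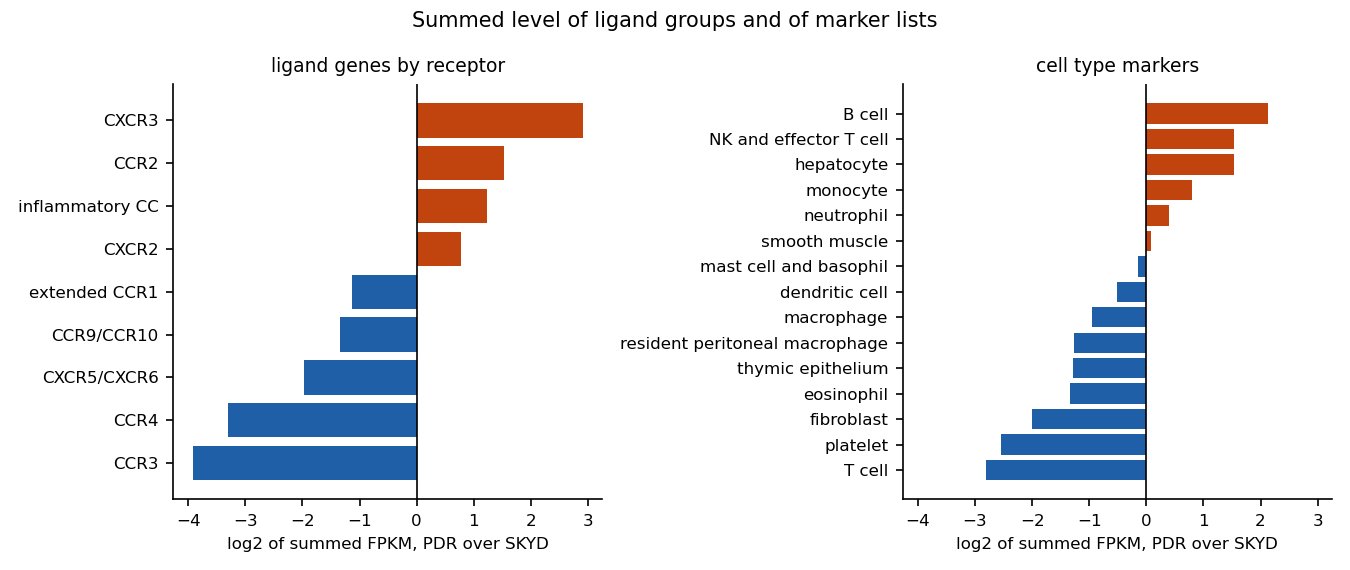
Log2 ratio of the summed FPKM, PDR over SKYD, of ligand groups named by receptor, with Ccl3, Ccl4 and Ccl5 as inflammatory CC (left), and of cell type marker lists (right), for lists with at least 2 compared genes. CXCR3 ligands lie furthest to the PDR side, with 62.0 and 8.25 FPKM, and CCR3 ligands furthest to the SKYD side, with 11.4 and 173 FPKM.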

How the data were processed

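The authors sequenced 1 library of pooled macrophages per group. According to the submitters' processing notes and the study's methods, reads were aligned with TopHat2 2.0.9 and Bowtie2 2.0.6 and counted with HTSeq 0.6.1. The deposited values are FPKM for 54532 genes, with gene length, position and biotype. The notes name the mm9 build, but 98.3% of the 54495 genes shared with GENCODE M21, and all 44 members, have their GRCm38 position, so positions are given on GRCm38. Whether counting used strand is not given in the sources used here.

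To recover reads, the product of FPKM and gene length was divided by the step of 1 read, found from the values of each library alone. The size behind FPKM was 23487992 in PDR and 24993633 in SKYD, and 100% of values were whole within 0.01 reads. Beside 23086889 and 25427863 reads on genes, the size was higher in PDR and lower in SKYD. FPKM was thus not scaled by reads on genes alone, and how the size was set was not established here. Fold intervals used the split of a gene's reads between the libraries. For a gene at 0, a floor of 3 reads per library was used, 1.3e-05% of reads in PDR and 1.18e-05% in SKYD. No test was made, because each group had 1 library. The steps were tested on simulated data.

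The members and the gene lists were chosen with earlier results of these data known. Named were all compared members, other members with at least 10 reads, the 3 genes of highest mean FPKM and the 2 of largest difference in each pathway list, and the most abundant gene of each marker list. The hepatocyte list also held the name Tf, which is not in the table, for the gene Trf that was already listed. Some genes that this rule names are not reported here. Sequence shared between genes was counted as 64-base windows of GENCODE M21 transcripts, which do not include the 7 scaffold members. Upstream sequences came from RefSeq (GRCm38.p6), where 27 member symbols had a window.

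Alternatives were pseudocounts of 0.1 and 0.01, no limit on FPKM, a limit of 5 on the mean, TPM, centring on the median, a trimmed mean of log ratios, a 4-fold threshold and the sum without Ccl6. The trimmed mean shifted the deposited values by only -0.0082 in log2, PDR minus SKYD, so it nearly repeats the main setting and is no separate check. Scaling to macrophage markers, the sum without Ccl6 and Ccl9 and the protein-coding background were added after the data were seen. Calculations ran in Python 3.11.15 with scipy 1.17.1, pandas 2.3.3 and numpy 2.4.6, and figures were drawn with matplotlib 3.10.9.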

Additional observations from a re-analysis of the deposited data

Results flagged for a closer look

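Cxcl11, the third CXCR3 ligand gene, is outside the members because the table gives it as a polymorphic pseudogene, and its reads were 112 for PDR and 4 for SKYD, 29.8-fold higher in PDR (95% CI 11.3 to 111), with a mean FPKM under 1. Ccl19-ps3, an unprocessed pseudogene that shares sequence with Ccl19, had 4 reads in PDR and 3 in SKYD.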

How the results depend on the processing

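With 1 library per group, no library could be left out. No paired analysis was possible because each group had 1 library and no result comes from a test. The counts of 6 members past 2-fold in PDR and 7 in SKYD became 3 and 3 with a 4-fold threshold, beside 1.87% and 2.08% of all genes. Scaled to the median of the 12 macrophage markers, an alternative chosen after seeing the data, they were 10 and 3, the median difference was 0.70 and the summed level was 1.13-fold higher in SKYD, while 26.0% of all genes were past 2-fold in PDR and 3.12% in SKYD, in place of 7.38% and 6.91%. There Ccl8, Ccl12, Cxcl1 and Cxcl2 joined the PDR side and Ccl6, Ccl9, Ccl11 and Cxcl14 left the SKYD side, and Ccl3 (0.70) and Cxcl16 (0.42), not past 2-fold, changed sign. With a mean FPKM of at least 5, 19 members were compared and their median difference was 0.35. The ratio of summed levels, SKYD over PDR, was 1.77 without Ccl6, 1.94 as TPM, and 0.998 without Ccl6 and Ccl9, the last chosen after seeing the data. The other alternatives gave 6 members in PDR and between 5 and 9 in SKYD, beside 1.57% to 10.5% and 1.56% to 10.1% of all genes, the lowest shares being those over all 54532 genes. Cxcl3, not compared otherwise, was past 2-fold in SKYD as TPM and with no limit on FPKM, beside 7.91% and 1.56% of all genes. With a pseudocount of 0.1, Ccl25 (-1.06) and Ccl27a (-1.15) were past 2-fold in SKYD, beside 9.71% of all genes. For a single named gene, 82 of the alternative values stayed on the same side of 2-fold, 6 passed it and 4 fell below it. Depth limits genes with few reads, such as Ccl11 and the members not compared.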
